A study of Mus musculus with 40 samples.

Results

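Slc9a9, Bnip3, Upp2, Tgm1, Sec22c, Clk1, Cited2, Rnf125, Cdk20 and Acrbp are 10 of the 12616 genes tested in mouse liver, from a count table of 32544 rows. They were selected on measured values, as genes past the adjusted p threshold of 0.05 when delta-valerobetaine was given on a control diet. That contrast called 19 genes, 0.151% of those tested, and the other 9 were Ciart, Rsrp1, Hspa1a, Hist1h1c, Tef, Npas2, Pxdc1, Phospho1 and Bcl9l. The question was whether the 10 genes also differed with the compound on a Western diet, and with the diet itself.

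The livers came from germ-free male C57BL/6 mice at postnatal day 64. The mice had been treated for 6 weeks with delta-valerobetaine (VB), a trimethylated metabolite of gut bacteria, or with vehicle, on either diet. All 4 groups were germ-free, so no mouse carried bacteria that could make VB, and the groups were control diet with vehicle, control diet with VB, Western diet with vehicle and Western diet with VB, with 5 mice in each. RNA libraries were read on 2 lanes, and the lane counts of each mouse were summed.

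The set was put together by response and not by function, and its genes do different work. Bnip3 and Cited2 both belong to the response to low oxygen, Bnip3 as a target of hypoxia-inducible factor (HIF) and Cited2 as a brake on it. Bnip3 sits in the outer mitochondrial membrane and marks mitochondria for removal by autophagy. Upp2 is a liver enzyme that splits uridine to uracil, Tgm1 crosslinks proteins and is best known from the skin barrier, and Sec22c takes part in traffic between the endoplasmic reticulum and the Golgi. Slc9a9 exchanges sodium for protons in endosomes. Clk1 phosphorylates splicing factors, Cdk20 is a cyclin-dependent kinase linked to cilia, Rnf125 is a ubiquitin ligase that limits RIG-I signalling, and Acrbp is known as the acrosin-binding protein of sperm. No member stood on the list of 21 circadian clock genes or on that of 16 heat shock genes. Bnip3 stood on lists of HIF targets and of mitophagy genes. Each other member stood on a list of its own family or pathway, so that the set is not outside named pathways.

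On the control diet, Bnip3, Upp2, Tgm1 and Sec22c were higher with VB and the other 6 genes were lower. These are the values that chose the genes, and they carry no test here. VB and vehicle mice did not overlap in any of the 10 on that diet, against 3.88% of all genes. The log2 differences, VB minus vehicle, were 0.62 (SE 0.13) for Bnip3, 0.92 (SE 0.17) for Upp2, 1.63 (SE 0.29) for Tgm1 and 0.78 (SE 0.11) for Sec22c. Among those that were lower they were -3.77 (SE 0.62) for Slc9a9, -1.73 (SE 0.33) for Acrbp, -0.71 (SE 0.13) for Rnf125, -0.69 (SE 0.12) for Clk1, -0.66 (SE 0.12) for Cited2 and -0.64 (SE 0.12) for Cdk20. Just inside the threshold lay Phospho1 (adjusted p 0.0285), Bcl9l (0.0449) and Bnip3 (0.0467), and just outside it lay Efhd2 (0.0502), Mup12 (0.0522) and March7 (0.0522), all from edgeR's quasi-likelihood test. The choice depended on single mice. With 1 mouse left out, only Slc9a9 and Sec22c stayed past the threshold in all 20 fits. Clk1 passed in 18, Cited2 in 17, Tgm1 in 16, Rnf125 in 15, Cdk20 and Upp2 in 14 each, Acrbp in 13 and Bnip3 in 8.

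Promoter windows of the members are shown because several of them share 1 motif. The windows are RefSeq's, on the build GRCm38.p6, and run from 250 bases before to 50 bases after a gene's start. Of the 10 members 8 had a window in that table, and Clk1 and Rnf125 had none. The E-box CACGTG, which reads the same on both strands and is bound by the clock factors CLOCK and BMAL1 among others, occurred in the windows of 4 of the 8, against 11.77% of the 9448 tested genes with a window and 7.15% of all 32851 windows. The 4 windows are printed 5′ to 3′ on the gene's strand with the E-box in capitals.
Bnip3, chr7:138909457-138909756, minus strand: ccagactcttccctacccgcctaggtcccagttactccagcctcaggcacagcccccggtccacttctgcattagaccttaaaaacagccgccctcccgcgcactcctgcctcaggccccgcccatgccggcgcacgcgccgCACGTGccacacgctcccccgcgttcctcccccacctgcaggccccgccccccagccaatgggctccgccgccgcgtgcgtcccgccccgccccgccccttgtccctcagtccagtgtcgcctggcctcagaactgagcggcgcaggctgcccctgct
Sec22c, chr9:121704980-121705279, minus strand: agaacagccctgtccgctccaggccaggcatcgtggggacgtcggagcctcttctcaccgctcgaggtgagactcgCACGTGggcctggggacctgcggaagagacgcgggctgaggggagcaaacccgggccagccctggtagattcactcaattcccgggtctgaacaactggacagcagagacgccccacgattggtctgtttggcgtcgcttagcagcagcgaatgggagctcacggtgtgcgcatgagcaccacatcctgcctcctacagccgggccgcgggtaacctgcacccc
Cited2, chr10:17722978-17723277, plus strand: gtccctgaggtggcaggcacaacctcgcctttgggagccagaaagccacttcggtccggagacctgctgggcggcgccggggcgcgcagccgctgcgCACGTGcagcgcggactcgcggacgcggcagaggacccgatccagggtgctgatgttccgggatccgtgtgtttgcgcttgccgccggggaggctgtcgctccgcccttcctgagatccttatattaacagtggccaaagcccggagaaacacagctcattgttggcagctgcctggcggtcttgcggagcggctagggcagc
Cdk20, chr13:64432303-64432602, plus strand: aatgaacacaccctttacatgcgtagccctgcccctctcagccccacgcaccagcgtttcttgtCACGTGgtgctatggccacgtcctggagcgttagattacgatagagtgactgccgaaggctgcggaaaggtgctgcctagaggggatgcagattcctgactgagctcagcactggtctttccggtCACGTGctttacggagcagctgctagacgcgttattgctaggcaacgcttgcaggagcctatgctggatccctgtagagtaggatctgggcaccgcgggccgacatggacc
The first base of the motif lay 108 bases before the RefSeq start in Bnip3, 174 in Sec22c and 153 in Cited2. Cdk20 held 2 copies, 186 and 61 bases before its RefSeq start. The GENCODE spans of Sec22c and Cdk20 given below begin further upstream, so the E-boxes of these genes lie inside those spans. The share of G and C in these windows ran from 57.7% in Cdk20 to 71.7% in Bnip3, and the median window of tested genes had 60.3%.

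The shorter core of the hypoxia response element, ACGTG on either strand, is part of the E-box and was therefore present in the same 4 windows. It also occurred in a window of Tgm1, which made 5 of 8, against 29.19% of tested genes. The nuclear receptor letters AGGTCA were found in Upp2 and Tgm1, against 15.54% of tested genes, and TGACG was found in Acrbp, against 34.92%. No member window held the D-box TTATGTAA, the cAMP response letters TGACGTCA, the heat shock letters GAANNTTC or the FOXO letters TGTTTAC. A match is a description of letters in these windows and not a measured binding site.

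Sequencing depth ran from 16315300 to 24566700 counts per mouse. Mitochondrial genes took 1.99% to 3.33% of counts in 19 of the 20 mice and 4.62% in Western diet vehicle mouse 4. For Western diet VB mouse 1, 1 of its 2 lane files was labelled as vehicle while both titles placed it in VB. It was kept as a VB mouse, and results that rest on it are also given without it. Library names had another form on each diet, so a handling batch that followed them cannot be told apart from diet. Hepatocyte markers were abundant in every mouse, at a summed 32386 to 54969 CPM (counts per 1e6 counts). In bulk liver, fewer cells of a type and less RNA per cell cannot be told apart.

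VB against vehicle on the Western diet compares mice that had no part in the selection. In the fit over all 4 groups the estimate of the spread still drew on the control diet mice that chose the genes, so the fit of the 10 Western diet mice alone is given beside it. Fitted alone, those mice gave 4 calls among the 10 genes in edgeR's quasi-likelihood test, against 3.85% of all genes (464 of 12058). Cited2 rose by 0.60 (SE 0.14, adjusted p 0.0278), while Bnip3 (-0.68, SE 0.13, adjusted p 0.0150), Tgm1 (-0.98, SE 0.22, adjusted p 0.0294) and Sec22c (-0.56, SE 0.12, adjusted p 0.0196) fell. Clk1 (adjusted p 0.0877) and Acrbp (adjusted p 0.0899) did not pass there.

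In the fit over all groups, from which the other Western diet values come, 6 of the 10 genes changed at an adjusted p under 0.05 in edgeR's quasi-likelihood test, against a background of 7.19% of all genes (907 of 12616). Clk1, Cited2 and Acrbp rose, against 3.33% of all genes called higher, and Bnip3, Tgm1 and Sec22c fell, against 3.86% called lower. Each of these 6 went the other way than on the control diet. The VB and vehicle mice did not overlap in 5 of the 10 genes, against 5.56% of all genes. Since the genes were chosen for a large difference on the other diet, their median absolute log2 difference of 0.584 on the Western diet is given beside the 0.169 of all genes as a description only.

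**Figure D1:**
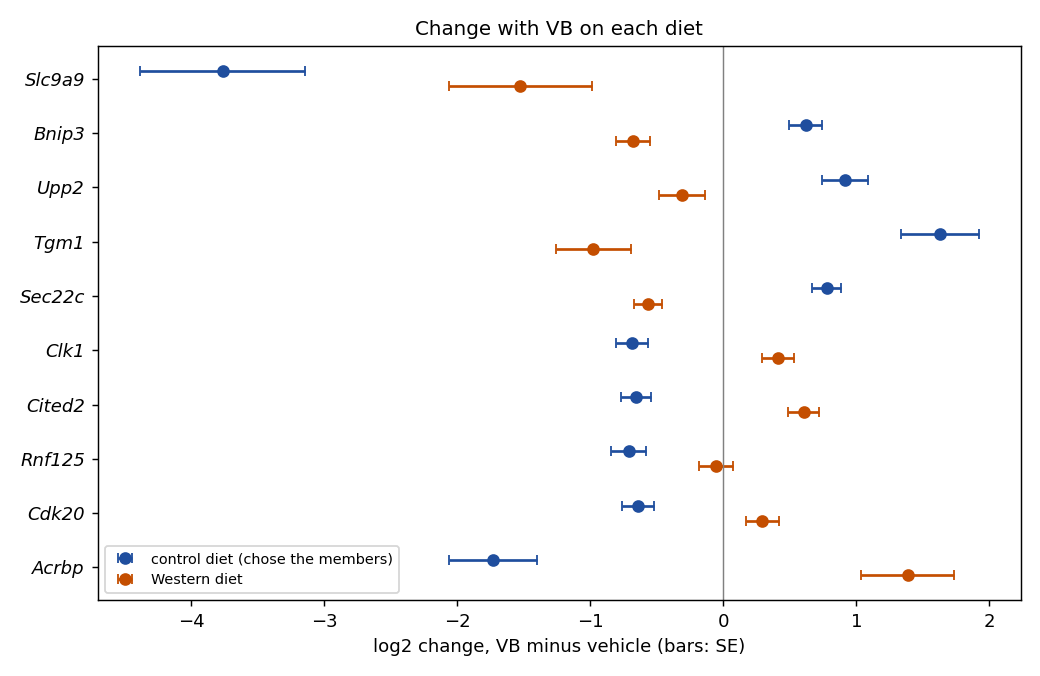
Log2 difference between VB and vehicle mice for each of the 10 genes on the control diet (blue, the values that chose the genes) and on the Western diet (orange), with bars of 1 SE from the fit over all 20 mice. Of the 10 genes, 8 lie on opposite sides of 0 on the 2 diets, and Slc9a9 and Rnf125 lie on the same side.

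Over all 10 genes, 8 had opposite signs of the VB difference on the 2 diets, with Slc9a9 and Rnf125 the exceptions. Among the other 9 genes called on the control diet, 8 had opposite signs (88.9%), and 2 of those were called on the Western diet. Among all 12616 genes 57.8% had opposite signs, and among the 907 genes called on the Western diet 710 did. The difference between the VB effects holds the contrast that chose the genes, so it was not tested.

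Of the genes with a place in the response to low oxygen, Bnip3 fell and Cited2 rose with VB on the Western diet. Bnip3 measured 341, 360, 267, 389 and 361 CPM in the 5 Western diet vehicle mice and 195, 187, 217, 281 and 195 in the 5 VB mice. The single vehicle mouse at 267 lay below the single VB mouse at 281, and otherwise the groups were apart. The fall was 0.68 on the log2 scale (log2 difference -0.68, SE 0.13, edgeR adjusted p 0.00204). On the control diet the same gene measured 141, 193, 169, 195 and 233 CPM with vehicle and 271, 275, 274, 311 and 297 with VB, so that there the VB mice were the higher ones. Its 4 group means stood in the order Western diet vehicle (344 CPM ± 46.1, SD, n = 5), control diet VB (286 ± 17.8), Western diet VB (215 ± 38.6) and control diet vehicle (186 ± 34.0), and each neighbouring pair overlapped.

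Cited2, which encodes a protein that binds the coactivators CBP and p300 and keeps HIF1A off them, measured 17.1, 16.1, 17.8, 21.2 and 12.03 CPM in Western diet vehicle mice. In Western diet VB mice it measured 23.2, 23.7, 26.6, 28.3 and 25.9, all above the vehicle mice. The rise was 0.60 (log2, SE 0.12, edgeR adjusted p 0.00262). With vehicle on the control diet it had been 27.0, 24.8, 26.1, 25.4 and 22.6 CPM, and with VB 18.1, 17.9, 14.4, 13.7 and 15.7. Western diet VB mice (25.6 CPM ± 2.11, SD, n = 5) and control diet vehicle mice (25.2 ± 1.63) overlapped at the top, and Western diet vehicle mice (16.9 ± 3.30) and control diet VB mice (15.97 ± 1.99) overlapped at the bottom, with no overlap between these pairs.

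The neighbours of both genes in their pathways mostly did not pass the test. Of 17 other mitophagy genes tested, none rose and 1 fell with VB on the Western diet, namely Optn, a cargo receptor of mitophagy, at -0.42 (SE 0.08, edgeR adjusted p 0.00277). Bnip3l, the closest relative of Bnip3, was at -0.21 (SE 0.08, adjusted p 0.106). Among 20 other HIF targets 1 rose, P4ha1, a collagen prolyl hydroxylase, by 0.997 (SE 0.20, adjusted p 0.00316), and none fell. Of 10 other CBP/p300 partners and CITED genes 2 rose and none fell. Those were the coactivators themselves, Crebbp at 0.34 (SE 0.09, adjusted p 0.0175) and Ep300 at 0.46 (SE 0.14, adjusted p 0.0427), while Hif1a was at -0.19 (SE 0.12, adjusted p 0.413). The relatives Cited1 and Cited4 were too low to be tested.

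Sec22c changed with the smallest spread between mice of the 10 genes. Western diet vehicle mice measured 12.2, 13.2, 15.6, 11.8 and 13.6 CPM, and Western diet VB mice measured 8.38, 8.11, 8.67, 10.5 and 9.23. No VB mouse reached the lowest vehicle mouse. The log2 difference was -0.56 (SE 0.11, edgeR adjusted p 0.00201). The control diet mice measured 5.58, 5.41, 5.53, 6.47 and 6.43 CPM with vehicle and 8.84, 11.3, 9.88, 10.1 and 10.4 with VB. Western diet vehicle stood highest (13.3 CPM ± 1.502, SD, n = 5) and control diet vehicle lowest (5.89 ± 0.52), with the overlapping VB groups between them (10.1 ± 0.90 on control diet and 8.98 ± 0.95 on Western diet) and no overlap with either. Of its variance over the 20 mice on the log2 scale, 91.8% lay between groups, beside a median of 26.6% for all genes. Sec22c was chosen on 1 of these group differences. The related Sec22a was at 0.12 (SE 0.09, adjusted p 0.513) and Sec22b at 0.003 (SE 0.07, adjusted p 0.989), and among 16 other trafficking proteins between endoplasmic reticulum and Golgi 1 rose, the syntaxin Stx5a at 0.47 (SE 0.13, adjusted p 0.0318), and none fell.

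**Figure D2:**
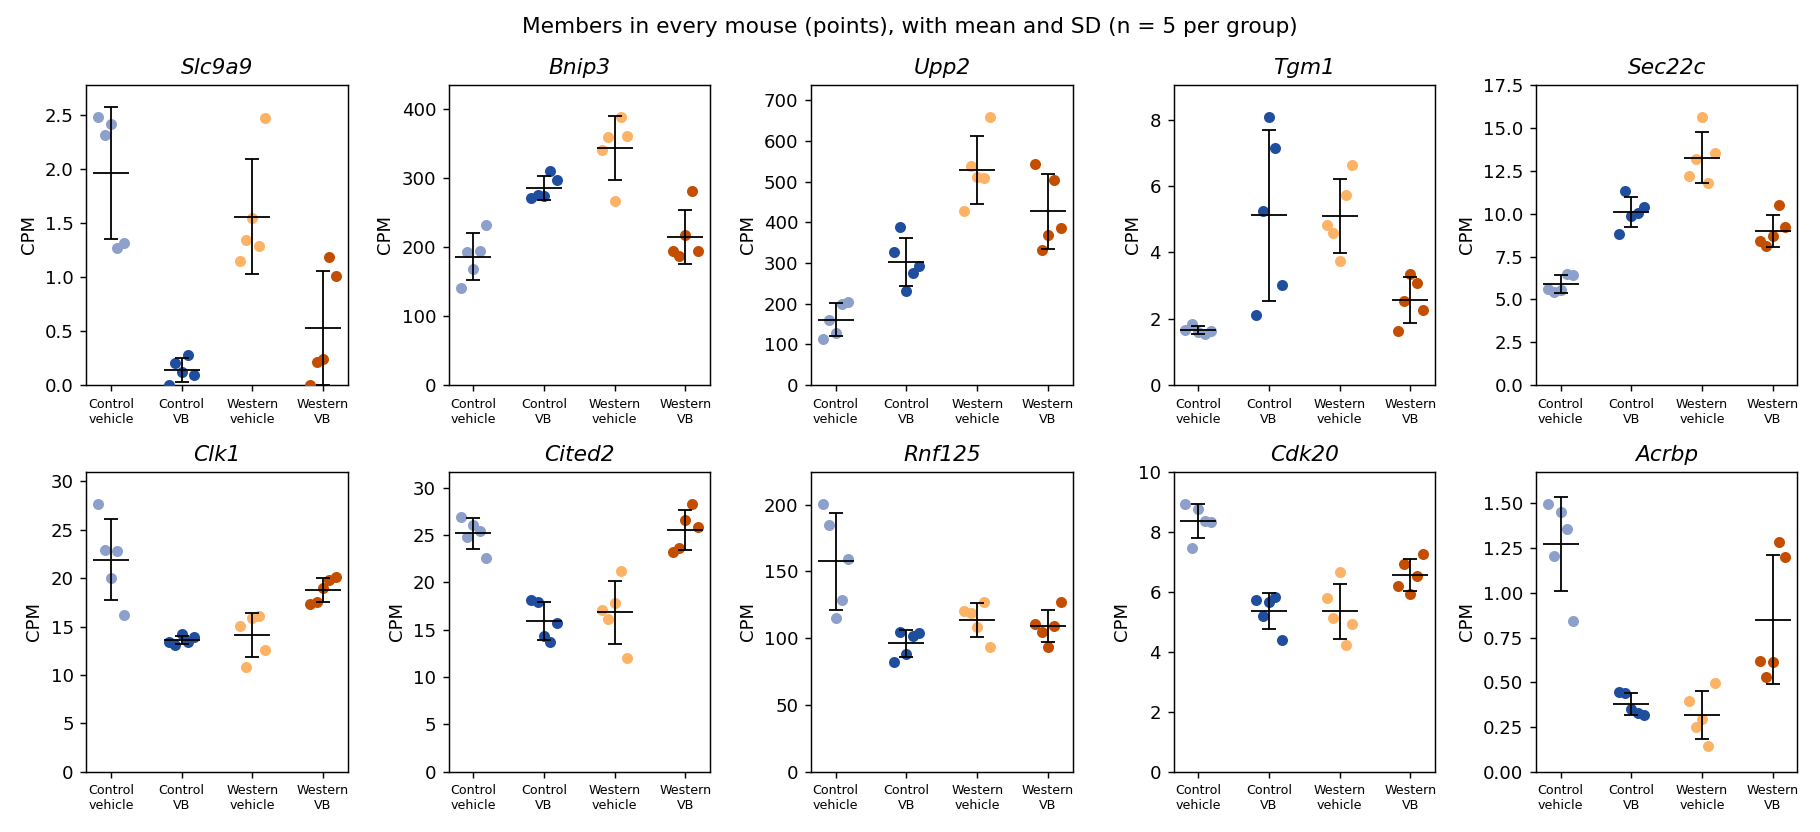
Level of each of the 10 genes in CPM (y axis from 0, scaled for each gene) in every mouse of the 4 groups, with a point for each mouse, the mean as a long dash and 1 SD as the bar (n = 5). Sec22c, Cited2, Clk1, Tgm1 and Acrbp show VB mice apart from vehicle mice on both diets and in opposite order, while Rnf125 overlaps on the Western diet. The control diet part follows from the selection, and the share of all genes with this pattern was not counted.

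Tgm1, whose enzyme links proteins to one another, was low in all livers. Western diet vehicle mice measured 4.84, 4.58, 3.75, 5.72 and 6.64 CPM and Western diet VB mice 1.61, 2.54, 3.36, 3.09 and 2.26, again without overlap. Its fall was 0.98 (log2 difference -0.98, SE 0.28, edgeR adjusted p 0.0368). This call was lost without any of 7 single mice, namely Western diet vehicle mouse 1, 2, 4 or 5 and Western diet VB mouse 1, 2 or 5, with differences from -1.005 to -0.85 and adjusted p from 0.0507 to 0.0960. On the control diet, vehicle mice kept to a narrow range (1.65, 1.84, 1.61, 1.54 and 1.63 CPM), and VB mice were more spread (2.10, 5.24, 8.08, 7.15 and 3.02). Control diet VB (5.12 CPM ± 2.57, SD, n = 5) and Western diet vehicle (5.11 ± 1.11) overlapped, as did Western diet VB (2.57 ± 0.69) and control diet vehicle (1.66 ± 0.11).

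Since Tgm1 is a gene of skin cells, keratinocyte markers were read beside it. Krt1 and Krt5 were at 0 in all 20 mice, and the 8 markers together summed to 3.29 to 5.44 CPM in Western diet vehicle mice and 3.13 to 5.71 in Western diet VB mice. On the control diet they summed to 2.16 to 3.71 CPM with vehicle and 2.10 to 4.55 with VB. None of the 2 markers that could be tested, Lor and Krt10, passed the test with VB on the Western diet. The widespread relative Tgm2 was at -0.16 (SE 0.11, edgeR adjusted p 0.460), and Tgm5, Tgm6 and Tgm7 were at 0 in all mice.

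Clk1 rose with VB on the Western diet by 0.41 (log2, SE 0.12, edgeR adjusted p 0.0410). Western diet vehicle mice measured 15.05, 10.9, 15.9, 16.1 and 12.6 CPM and VB mice 17.4, 17.5, 18.9, 19.8 and 20.1, with every VB mouse above every vehicle mouse. The control diet mice measured 27.7, 22.9, 20.04, 22.8 and 16.2 CPM with vehicle and 13.4, 13.1, 14.2, 13.5 and 13.9 with VB. The Clk1 call lay near the threshold, was lost when the Western diet mice were fitted alone (adjusted p 0.0877) and was lost without any of 9 single mice. These were control diet VB mouse 3, 4 or 5, Western diet vehicle mouse 2 or 5 and Western diet VB mouse 2, 3, 4 or 5, with differences from 0.34 to 0.44 and adjusted p from 0.0501 to 0.117. By group mean, control diet vehicle (21.9 CPM ± 4.20, SD, n = 5) overlapped Western diet VB (18.8 ± 1.25), and Western diet vehicle (14.1 ± 2.29) overlapped control diet VB (13.6 ± 0.46), without overlap between the pairs.

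Other kinases and factors of splicing gave 2 calls among 19 genes tested, both higher with VB on the Western diet. Tra2b, a splicing activator, rose by 0.63 (SE 0.10, edgeR adjusted p 6.9e-04), and Clk3, a kinase of the same family, rose by 0.30 (SE 0.09, adjusted p 0.0362). Clk2 was at 0.48 (SE 0.15, adjusted p 0.0622) and Clk4 at 0.30 (SE 0.12, adjusted p 0.138), and neither passed. On the control diet, where Clk1 was at -0.69, the differences were -0.18 for Clk2, -0.17 for Clk3 and -0.24 for Clk4.

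Acrbp was counted in few reads, and its rise on the Western diet rests on them. The reads numbered 9, 5, 5, 2 and 9 in Western diet vehicle mice and 10, 10, 15, 25 and 25 in VB mice, or 0.396, 0.249, 0.297, 0.143 and 0.494 CPM against 0.621, 0.530, 0.614, 1.29 and 1.20. The lowest VB mouse lay just above the highest vehicle mouse, and VB mice 4 and 5 were highest. The log2 difference was 1.39 (SE 0.35, edgeR adjusted p 0.0170), and without Western diet VB mouse 5 it was 1.23 (SE 0.37, adjusted p 0.0594). With the Western diet mice fitted alone it was 1.39 (SE 0.41, adjusted p 0.0899). Control diet mice had 29, 23, 27, 30 and 16 reads with vehicle and 10, 11, 9, 7 and 7 with VB. Control diet vehicle (1.27 CPM ± 0.26, SD, n = 5) and Western diet VB (0.851 ± 0.362) overlapped, and so did control diet VB (0.378 ± 0.061) and Western diet vehicle (0.316 ± 0.135).

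Other genes of the sperm acrosome were mostly at or near 0 in these livers. Acr, Spaca3, Spam1 and Zp3r were at 0 in all 20 mice, and 9 of the 11 listed genes were too low to be tested. The 1 other tested gene, Pcsk4, a proprotein convertase, fell with VB on the Western diet from 26.7 CPM ± 3.56 to 9.64 ± 4.16 (SD, n = 5), a log2 difference of -1.46 (SE 0.21, edgeR adjusted p 4.1e-04).

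Slc9a9 did not pass the test on the Western diet, and its mice were uneven. Western diet vehicle mice had 26, 27, 26, 18 and 45 reads, or 1.14, 1.35, 1.55, 1.29 and 2.47 CPM. Western diet VB mice had 0, 4, 6, 23 and 21 reads, or 0, 0.212, 0.245, 1.18 and 1.01 CPM. VB mice 1, 2, 3 and 5 lay below every vehicle mouse, and mouse 4 lay within their range. The log2 difference was -1.53 (SE 0.54, edgeR adjusted p 0.0934), of the same sign as the -3.77 on the control diet. Without VB mouse 4 it was -2.03 (SE 0.58, adjusted p 0.0330). DESeq2 gave -1.54 (adjusted p 0.0353) and limma-voom -2.24 (adjusted p 0.0291), so the call depended on the tool.

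Control diet vehicle mice had 48, 44, 45, 28 and 25 reads of Slc9a9 and control diet VB mice 0, 5, 3, 6 and 2. By group mean, control diet vehicle (1.96 CPM ± 0.61, SD, n = 5) overlapped Western diet vehicle (1.56 ± 0.53), and Western diet VB (0.53 ± 0.53) overlapped control diet VB (0.138 ± 0.108). Western diet VB mice 4 and 5, which held most of that group's Slc9a9 reads, were also the ones with most Acrbp reads. Of 9 other sodium-proton exchangers and their partners tested, none passed the test with VB on the Western diet, with the Golgi exchanger Slc9a8 at -0.03 (SE 0.16, edgeR adjusted p 0.945).

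Upp2 did not pass the test with VB on the Western diet. Western diet vehicle mice measured 429, 538, 511, 509 and 659 CPM and Western diet VB mice 544, 331, 368, 504 and 387, with much overlap. The log2 difference was -0.31 (SE 0.17, edgeR adjusted p 0.332). Control diet mice measured 114, 160, 127, 199 and 203 CPM with vehicle and 327, 389, 231, 277 and 293 with VB. Western diet vehicle (529 CPM ± 83.3, SD, n = 5), Western diet VB (427 ± 92.1) and control diet VB (303 ± 58.9) overlapped from neighbour to neighbour, and control diet vehicle (161 ± 40.6) lay below all 3.

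Other genes of pyrimidine salvage and breakdown went lower where they passed the test. With VB on the Western diet 4 of 18 fell and none rose. These were the uridine kinase Uck1 at -0.43 (SE 0.09, edgeR adjusted p 0.00642), the cytidine deaminase Cda at -1.001 (SE 0.25, adjusted p 0.0174), the nucleoside transporter Slc28a1 at -1.76 (SE 0.49, adjusted p 0.0307) and the dihydropyrimidinase Dpys at -0.32 (SE 0.09, adjusted p 0.0361). Slc28a1 was counted in few reads, with means of 0.645 CPM with vehicle and 0.182 with VB, and its groups overlapped. The other uridine phosphorylase, Upp1, was at -0.83 (SE 0.27, adjusted p 0.0675).

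Cdk20 and Rnf125 did not pass the test with VB on the Western diet. Cdk20 measured 5.81, 5.13, 6.66, 4.22 and 4.94 CPM in Western diet vehicle mice and 6.21, 6.94, 5.93, 6.54 and 7.26 in VB mice, an overlapping pair with a difference of 0.29 (SE 0.12, edgeR adjusted p 0.174). In control diet mice it measured 8.94, 7.46, 8.76, 8.37 and 8.33 CPM with vehicle and 5.71, 5.204, 5.65, 5.83 and 4.39 with VB. Control diet vehicle (8.37 CPM ± 0.57, SD, n = 5) lay above Western diet VB (6.58 ± 0.54) without overlap, and that in turn above control diet VB (5.36 ± 0.59), which overlapped Western diet vehicle (5.35 ± 0.92). Among 19 other cyclin-dependent kinases and their partners 1 fell, Cdk18 at -0.27 (SE 0.08, adjusted p 0.0471), and none rose, with Cdk7, the kinase that activates others of the family, at 0.24 (SE 0.11, adjusted p 0.214).

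Rnf125 was the member with the smallest difference on the Western diet, at -0.06 (SE 0.13, edgeR adjusted p 0.872). Western diet vehicle mice measured 120, 119, 108, 127 and 93.7 CPM and Western diet VB mice 110, 105, 93.7, 109 and 127, ranges that nearly coincide. Control diet mice measured 201, 184, 115, 128 and 159 CPM with vehicle and 82.1, 104, 88.4, 102 and 104 with VB. The control diet vehicle group (157 CPM ± 36.2, SD, n = 5) was the highest and most spread, Western diet vehicle (113 ± 12.95) and Western diet VB (109 ± 12.1) followed, control diet VB (96.1 ± 10.2) was lowest, and each neighbour overlapped the next. None of 13 other genes of the RNF125 family and RIG-I signalling passed the test, with the related ligases Rnf114 at 0.04 (SE 0.07, adjusted p 0.815), Rnf138 at -0.01 (SE 0.11, adjusted p 0.978) and Rnf166 at 0.08 (SE 0.11, adjusted p 0.761).

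Leaving out the Western diet VB mouse with a lane labelled as vehicle left 5 of the 6 calls. Without it the differences with VB on the Western diet were -0.64 for Bnip3 (edgeR adjusted p 0.00669), -0.54 for Sec22c (0.00577), 0.64 for Cited2 (0.00335), 0.44 for Clk1 (0.0456) and 1.48 for Acrbp (0.0173). Tgm1 was at -0.85 (adjusted p 0.0869). Slc9a9 was at -1.24, Upp2 at -0.41, Cdk20 at 0.31 and Rnf125 at -0.06, none of them past the threshold. Among the fits with 1 mouse left out, the number of members called moved most without Western diet VB mouse 5, from 6 to 3, when Tgm1, Clk1 and Acrbp were lost. Calls over all genes went from 907 to 605 in that fit, the lowest number of these fits.

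**Figure D3:**
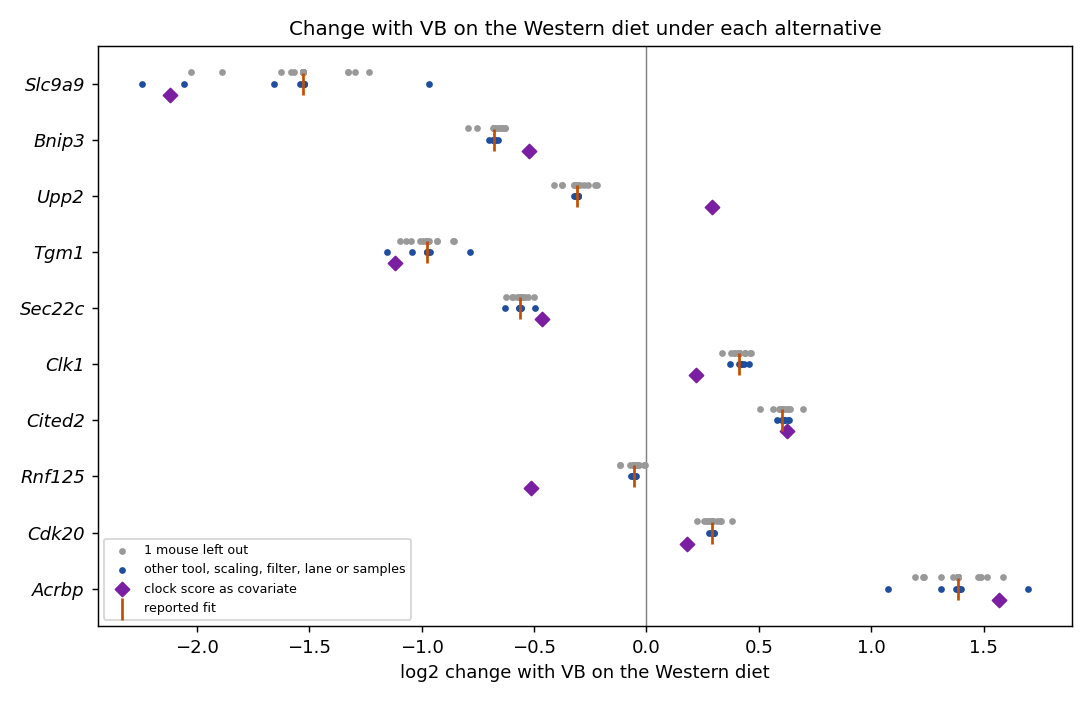
Log2 difference with VB on the Western diet for each gene in the reported fit (orange dash), with 1 mouse left out (grey), with another tool, scaling, filter, lane or choice of samples (blue) and with the clock score as a covariate (purple diamond). Only the value of Upp2 with the clock score, at 0.29, lies on the other side of 0 than the reported one.

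Bnip3, Sec22c and Cited2 were the steadiest calls. In 31 of 32 alternatives each of them passed the threshold on the Western diet, and the exception was the clock score as a covariate. Acrbp passed in 27 of 31, Tgm1 in 22 of 32 and Clk1 in 19 of 32.

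Clock genes moved with the same groups. A score built from 21 clock genes, their first principal component at an SD of 1, ran from -1.78 to -0.84 in control diet vehicle mice, from -0.56 to 0.05 in control diet VB mice, from -0.25 to 0.72 in Western diet VB mice and from 1.20 to 1.48 in Western diet vehicle mice. On the Western diet it was lower with VB by 1.07 (difference -1.07, exact two-sided permutation test, n = 5 per group, p 0.00794, the smallest that this design allows). Of the 21 clock genes 4 rose and 4 fell with VB on the Western diet, among them Arntl, which encodes BMAL1, at 1.84 (SE 0.35, edgeR adjusted p 0.00286) and Per3 at -0.99 (SE 0.28, adjusted p 0.0329). The vehicle groups lay at the ends of the score and the VB groups between them. By group mean, the vehicle groups were also at the ends in Bnip3, Upp2, Sec22c, Cdk20 and Acrbp. They were not in Slc9a9, Tgm1, Clk1, Cited2 and Rnf125. Only Upp2 had all 4 group means in the order of the score. No collection time is given in the labels.

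**Figure D4:**
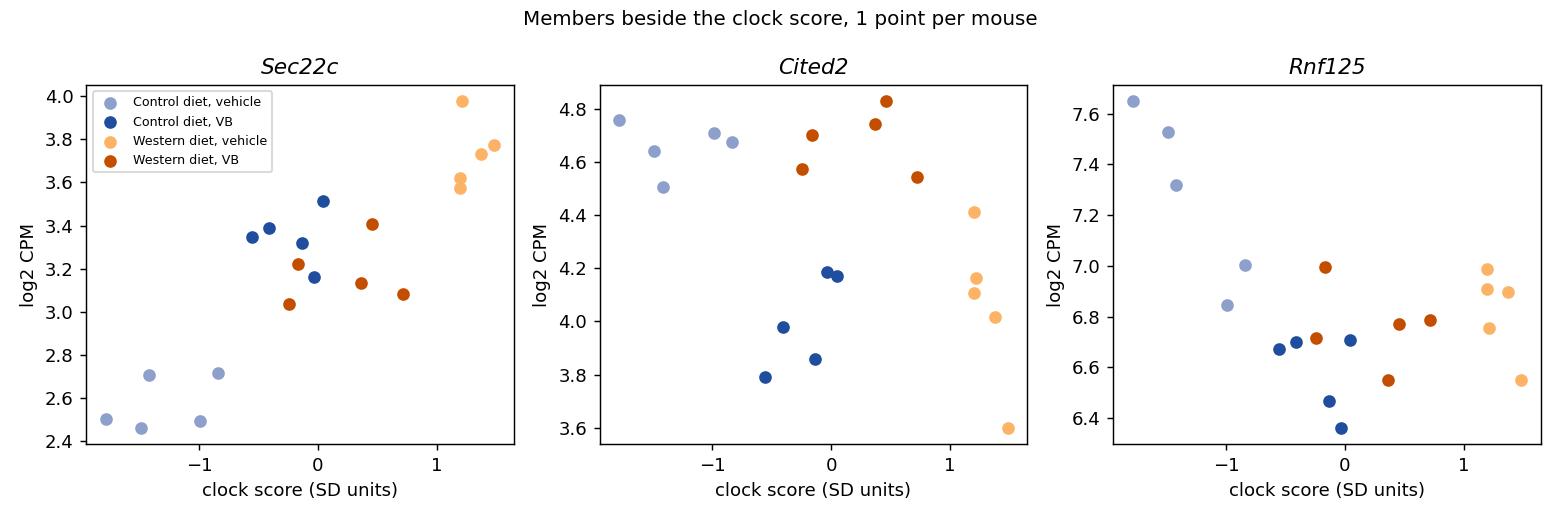
Level of Sec22c, Cited2 and Rnf125 in log2 CPM (y axes do not start at 0) against the clock score in SD units, with a point for each of the 20 mice and a colour for each group. Sec22c is lowest at the low end of the score and highest at the high end, Cited2 is low in both middle control diet VB and high-score Western diet vehicle mice, and Rnf125 is highest in control diet vehicle mice.

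With the score as a covariate, no member passed the threshold with VB on the Western diet in edgeR, and 7 of 10 had an unadjusted p under 0.05. Over all genes, 2 were then called, against 907 without the covariate. The sign stayed the same in 9 of 10 members, with Upp2 the exception at 0.29, and the members' median absolute log2 difference went from 0.584 to 0.518. Their median SE went from 0.128 to 0.211. Bnip3 was at -0.52 (SE 0.22, adjusted p 0.512), Sec22c at -0.46 (SE 0.18, adjusted p 0.472), Cited2 at 0.63 (SE 0.19, adjusted p 0.315) and Acrbp at 1.57 (SE 0.56, adjusted p 0.405). The score did not overlap between VB and vehicle mice on either diet, so in this design the score and VB cannot be told apart.

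Heat shock genes and major urinary protein genes also differed with VB on the Western diet. Of 16 heat shock genes 9 rose with VB and none fell, led by Hspa1a at 3.05 (SE 0.39, edgeR adjusted p 1.3e-04). Their summed level was 2617 to 3565 CPM in Western diet vehicle mice and 3472 to 4311 in VB mice. Major urinary protein genes, secreted products of male liver, took 9.53% to 12.7% of counts in Western diet vehicle mice and 15.8% to 25.2% in Western diet VB mice. Without those genes in the library sizes the members' calls were 6 as before. The part of the heat shock genes in the result was not tested.

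Markers of other cells gave few calls with VB on the Western diet. No marker passed the test among 8 of Kupffer cells, 8 of endothelium, 8 of stellate cells and fibroblasts, 5 of lymphocytes and 2 of neutrophils. Kupffer cell markers summed to 77.3 to 359 CPM in Western diet vehicle mice and 105 to 245 in VB mice, endothelial markers to 108 to 209 and 71.9 to 175, and stellate markers to 176 to 230 and 81.2 to 216. The bile duct marker Sox9 rose by 0.94 (SE 0.22, edgeR adjusted p 0.0110), as 1 of 7 tested, with sums of 38.3 to 81.8 CPM and 31.8 to 52.2. Of 6 adipocyte markers only 2 could be tested, and both fell, Cfd by 3.20 (log2 difference -3.20, SE 0.57, adjusted p 0.00258) and Car3 by 0.54 (-0.54, SE 0.15, adjusted p 0.0291). The groups overlapped in both, with Cfd at 30.1 to 265 CPM with vehicle and 4.97 to 32.3 with VB. Adipoq, Plin1, Lep and Retn were too low to be tested. The adipocyte sums were 3700 to 7738 CPM with vehicle and 2638 to 3922 with VB, carried mostly by Car3, which hepatocytes also express. Of the hepatocyte markers Tat rose by 1.98 (SE 0.26, adjusted p 2.5e-04) and Cyp3a11 fell by 1.54 (-1.54, SE 0.24, adjusted p 7.5e-04), with the other 6 not past the threshold. The part of these cells in the members' values was not tested.

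The diet comparisons share their control diet mice with the contrast that chose the genes, so they are given as values and nothing is read from them. In vehicle mice the Western diet called 16.5% of all genes and 9 of the 10 members. The log2 differences, Western minus control diet, were 0.89 (SE 0.13) for Bnip3, 1.72 (SE 0.18) for Upp2, 1.62 (SE 0.29) for Tgm1 and 1.17 (SE 0.11) for Sec22c. They were -0.64 (SE 0.12) for Clk1, -0.58 (SE 0.12) for Cited2, -0.47 (SE 0.13) for Rnf125, -0.64 (SE 0.12) for Cdk20 and -1.96 (SE 0.34) for Acrbp. Slc9a9, at -0.33 (SE 0.49), was the gene not called. Western and control diet vehicle mice did not overlap in 8 of the 10 genes, against 12.2% of all genes, the exceptions being Slc9a9 and Rnf125. Without control diet vehicle mouse 1, Rnf125 was at -0.37 (SE 0.13, edgeR adjusted p 0.0562). The same control diet vehicle mice stand in the contrast that chose the genes.

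**Figure D5:**
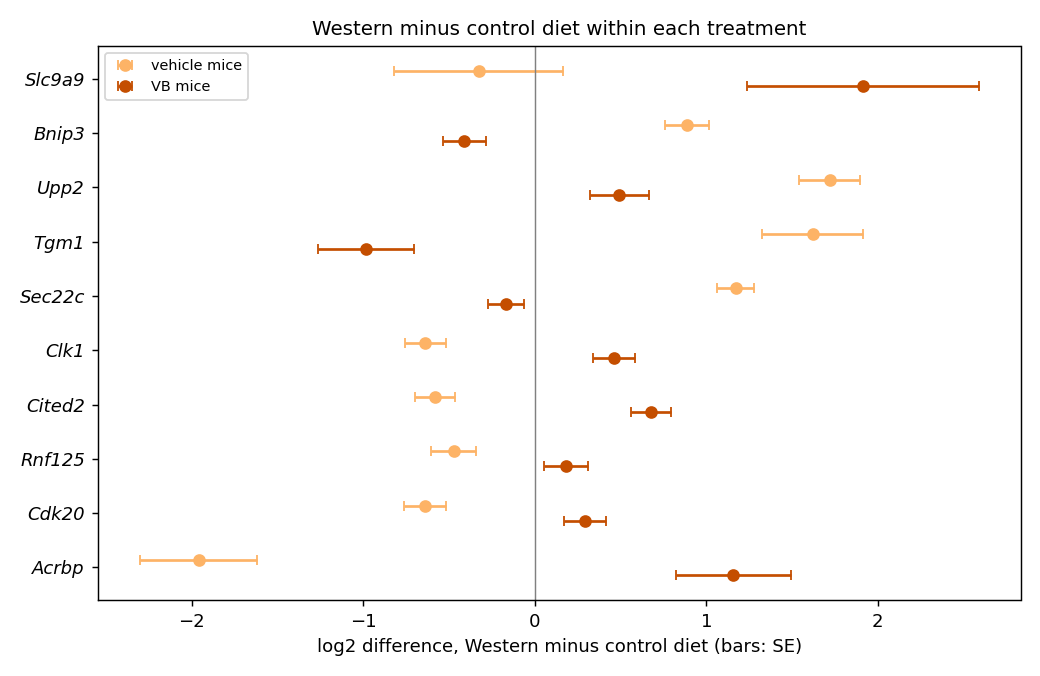
Log2 difference between Western and control diet for each gene in vehicle mice (light orange) and in VB mice (dark orange), with bars of 1 SE. In vehicle mice Bnip3, Upp2, Tgm1 and Sec22c lie above 0, and in VB mice only Upp2 of these 4 does.

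In VB mice the Western diet called 6.44% of all genes and 4 of the 10 members. Tgm1 was at -0.98 (SE 0.28), Clk1 at 0.46 (SE 0.12), Cited2 at 0.68 (SE 0.12) and Acrbp at 1.16 (SE 0.33). The other 6 were at 1.91 (SE 0.67) for Slc9a9, -0.41 (SE 0.13) for Bnip3, 0.49 (SE 0.17) for Upp2, -0.17 (SE 0.11) for Sec22c, 0.18 (SE 0.13) for Rnf125 and 0.29 (SE 0.12) for Cdk20. Clk1, Cited2, Cdk20 and Acrbp, 4 of 10, did not overlap between the diets, against 9.43% of all genes. Cited2 passed the threshold whichever mouse was left out, Clk1 in 16 of 20 such fits, Tgm1 in 13 and Acrbp in 12, and the mice concerned were all 5 control diet VB mice, control diet vehicle mouse 4 and Western diet VB mice 1, 2, 4 and 5. Over these the lowest and highest values were 0.44 and 0.49 for Clk1, -1.18 and -0.76 for Tgm1, and 0.96 and 1.27 for Acrbp. The number of members called ran from 1, without control diet VB mouse 2 or 4 or Western diet VB mouse 5, to 5. Bnip3, not called with all mice in edgeR, passed without control diet vehicle mouse 1 or 5, Western diet vehicle mouse 3 or 4 or Western diet VB mouse 4, with values from -0.53 to -0.41, and in 4 of 6 other alternatives with all mice. Slc9a9 passed in DESeq2 and, of the fits with 1 mouse left out, in that without Western diet VB mouse 1, the mouse with the lane label in conflict, at 2.20 (SE 0.59, edgeR adjusted p 0.0304), where Tgm1 was at -0.86 (adjusted p 0.0904).

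The share of log2 variance that lay between the 4 groups was 62.1% to 91.8%, with a median of 76.7%, beside a median of 26.6% for all genes, and the genes were chosen on one of these group differences. After group means were removed, the 45 pairs of members had correlations from -0.51 to 0.57 over the 20 mice, with a median of 0.02, and the highest was that of Slc9a9 and Acrbp.

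For each member the genes with the most similar pattern within groups were taken from all tested genes. For Bnip3 it was Bbox1, which makes carnitine from gamma-butyrobetaine (Pearson r 0.87, Spearman rho 0.84, 20 mice), followed by Osbpl1a (r 0.82, rho 0.81). For Cited2 it was Tmed9 (r 0.88, rho 0.77) followed by 9030612E09Rik (r 0.85, rho 0.75). Clk1 lay closest to Gm37515 (r 0.85, rho 0.79) and Pabpn1 (r 0.73, rho 0.60), and Sec22c to Pik3c3 (r 0.82, rho 0.86) and Tmem143 (r 0.78, rho 0.80). Upp2 lay closest to Rasa1 (r 0.83, rho 0.79) and Ctage5 (r 0.83, rho 0.84), and Tgm1 to Psmc3ip (r 0.81, rho 0.78) and B4galt1 (r 0.80, rho 0.74). For the others they were Hars (r 0.80, rho 0.71) and Spcs1 (r 0.76, rho 0.74) with Cdk20, Ighm (r 0.78, rho 0.76) and Trmt10a (r 0.76, rho 0.60) with Rnf125, Gm21887 (r 0.77, rho 0.70) and Fubp1 (r 0.76, rho 0.67) with Slc9a9, and Fzr1 (r 0.77, rho 0.78) and Sox12 (r 0.77, rho 0.71) with Acrbp. These are the highest of many correlations, all genes of a mouse share its library and depth, and no test is given.

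The genes lie apart in the genome. On GRCm38, per the GENCODE annotation, Slc9a9 spans chromosome 9 from 94669909 to 95230445 (plus strand), and Sec22c lies on the same chromosome from 121680045 to 121705490 (minus). Bnip3 lies on chromosome 7 from 138890836 to 138909519 (minus), Upp2 on chromosome 2 from 58567298 to 58792971 (plus), Tgm1 on chromosome 14 from 55700009 to 55713926 (minus) and Clk1 on chromosome 1 from 58410189 to 58424066 (minus). Cited2 lies on chromosome 10 from 17723218 to 17725674 (plus), Cdk20 on chromosome 13 from 64432314 to 64441773 (plus), Acrbp on chromosome 6 from 125049689 to 125063267 (plus) and Rnf125 on chromosome 18 from 20944625 to 20983862 (plus).

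Overlapping genes can lend reads to 4 of the members. Bnip3 shares 504 of its exon bases (22.25%) with the antisense gene Gm45507, Tgm1 shares 182 (5.76%) with Gm49067 and Cdk20 shares 49 (0.72%) with 1700015C15Rik. Acrbp shares 975 (29.75%) with Gm44597 on the same strand, and 90 with the antisense 4930557K07Rik. The strand setting of the counting is not given in the sources used here. These overlapping genes have no row under these names in the count table, so reads in the shared bases cannot be told apart.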

How the data were processed

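Liver RNA of 20 mice was sequenced with a TruSeq kit, per the labels. The authors deposited a table of unnormalized read counts with 1 column for each of 40 lane files. Per the submitters' processing notes the genome was GRCm38. Neither the aligner nor the counter, annotation or strand setting is given in the sources used here, and reads of overlapping or near-identical genes are uncertain.

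The 2 lane files of each mouse differed by a chi-square per degree of freedom of 1.33 to 1.49, against at least 17.7 between mice of a group, and were summed. Groups came from the titles, also for the 1 lane file whose treatment label differs from its title. In R 4.3.3, genes were kept by filterByExpr (minimum count 10, minimum total 15), which left 12616 genes with 99.95% of counts. Counts were scaled by TMM and all groups were fitted with the robust quasi-likelihood test of edgeR 4.0.16, with Benjamini-Hochberg adjustment over all genes and a threshold of 0.05. CPM are on TMM-scaled library sizes, and log2 CPM used a prior count of 2. The procedure was tested on simulated data. Each edgeR p-value weighs a difference between groups against the variation of mice within groups, estimated over all groups in the fit.

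The genes, lists and tests were chosen with earlier results of these data known. Named besides the members were, for each list, up to 4 genes called on the Western diet with the smallest p, the closest relative by name, the 2 genes most like each member within groups and the genes beside the selection threshold. A few list genes are named besides that rule and were chosen after their values were seen. Members' promoters were read from RefSeq windows. Alternatives were RLE and upper-quartile scaling, DESeq2 1.42.0, limma 3.58.1 with voom, other filters, single lanes, Western diet mice alone, the mouse number as a block, the clock score as a covariate, Mup genes left out of library sizes and leaving out each mouse.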

Additional observations from a re-analysis of the deposited data

Results flagged for a closer look

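In 5 of the 10 genes every VB mouse lay on one side of the vehicle mice on the Western diet and on the other side on the control diet. The control diet part follows from the selection, since none of the 10 overlapped there. Over all genes, the groups did not overlap in 5.56% on the Western diet and in 3.88% on the control diet. The share of all genes apart on both diets in opposite order was not counted. Of the 907 genes called on the Western diet, 710 had opposite signs on the 2 diets. The log2 difference with VB was -0.98 on the Western diet and 1.63 on the control diet for Tgm1, and -0.56 and 0.78 for Sec22c. It was 0.41 and -0.69 for Clk1, 0.60 and -0.66 for Cited2, and 1.39 and -1.73 for Acrbp. The difference between the diets was not tested, because it holds the contrast that chose the genes. In the 40 groups of 5 mice that the 10 genes give, no single mouse stood apart by the Dixon criterion of 0.71.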

How the results depend on the processing

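With VB on the Western diet, 907 genes and 6 members were called. Scaling by RLE or upper quartile, or leaving Mup genes out of library sizes, kept 6 members, and the median of all genes stayed between -0.016 and -0.011 on the log2 scale. The counts moved to 464 genes and 4 members when only the Western diet mice were fitted, and to 2 genes and 0 members with the clock score as a covariate. In that last fit, members called with the Western diet went from 9 to 0 in vehicle mice and from 4 to 2 in VB mice. Over all genes, calls with the Western diet went from 2083 to 28 in vehicle mice and from 813 to 615 in VB mice. With VB on the control diet, the contrast that chose the genes, calls went from 10 to 0 members and from 19 to 0 genes. Upp2 with VB on the Western diet reversed to 0.29. With the Western diet in vehicle mice, Rnf125 reversed to 0.67 and Slc9a9, which was not called, went from -0.33 to 1.06. The cause was not tested. With 1 mouse left out, 605 to 1225 genes and 3 to 6 members were called with VB on the Western diet, 8 to 9 members with the diet in vehicle mice and 1 to 5 in VB mice. DESeq2 called 1235 genes and 7 members, with Slc9a9 added, and limma-voom 900 genes and 6 members, with Slc9a9 in place of Tgm1. With a minimum count of 50, Slc9a9 and Acrbp could not be tested, and 913 genes and 5 members were called. Lane 1 alone called 732 genes and 4 members, and lane 2 alone called 759 genes and 6 members. Fitted with the mouse number as a replicate block, 1067 genes and the same number of members, 6, were called. The numbers are not described as a pairing, and Western diet mice with the same number had correlations of -0.11 to 0.48, with 2 of 5 over 0.1 and 1 of 5 mice closest to its own number. Few reads limit Slc9a9 and Acrbp, with 402 and 284 reads over all 20 mice.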
